A study of Mus musculus with 2 samples.

Results

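The core circadian clock genes are described here as 10 transcripts, Dbp, Tef, Per1, Per2, Per3, Nr1d1, Nr1d2, Arntl, Npas2 and Clock, out of 32286 measured features. They were picked by symbol, with earlier results of these data known, so their levels and ratios are a description without a test. The cells came from male mice carrying Adipoq-CreERT2, a tamoxifen-inducible recombinase driven by the adiponectin gene, and Ai9, a tdTomato reporter that stays on once Cre has acted. Tamoxifen was given by mouth on 3 days to all mice, when they were 8 weeks old. The pulse library was made from bone harvested 24 hours later and the chase library 4 weeks later, so the chase mice were also older. Cells with strong tdTomato signal were collected by flow sorting of digested endosteal femur and tibia, at 0.01% of the total for the pulse and 0.29% for the chase. The series used 4 mice, and the sources used here do not say how they were divided or pooled. Each group is 1 library. The sources used here do not give the clock time of either harvest, so time of day, age, time since tamoxifen and library cannot be told apart as sources of a difference between pulse and chase.

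The molecular clock is a feedback loop. The proteins CLOCK or NPAS2 pair with ARNTL (also called BMAL1), bind E-box motifs and switch on the Per and Cry genes, the nuclear receptors Nr1d1 and Nr1d2 (REV-ERB alpha and beta) and the output genes Dbp and Tef. PER and CRY proteins then block the activators, NR1D1 and NR1D2 repress Arntl through ROR response elements, and DBP and TEF act on D-box motifs. In most tissues the transcripts of this loop rise and fall daily, with Dbp and the Nr1d genes high at a phase when Arntl is low. Marrow stromal cells, among them the Cxcl12-abundant reticular (CAR) cells sorted here, are known for daily release of the chemokine CXCL12.

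Promoters that hold a motif of the loop are shown, since these motifs are where its proteins act. RefSeq promoters (GRCm38.p6, from 250 bases before to 50 after a start site) were matched for 9 of the 10 members, with 14 start sites. Both strands were searched for the E-box CACGTG, its variant CACGTT, the D-boxes TTATGTAA, TTACGTAA and TTATGCAA, and the ROR element cores TAGGTCA and TGGGTCA. Of 32851 promoters of the same length, 7.15% hold the E-box, 4.68% the variant, 1.78% a D-box and 6.45% a ROR element core. Among the members, Tef and Per1 hold an E-box, Per1 and Per3 a D-box, Nr1d1 the E-box variant, and 1 of the Arntl start sites a ROR element core. None of these motifs was found in the windows of Dbp, Nr1d2, Npas2 and Clock, which says only that the letters are not in these windows. Capitals mark these matches in the 250 bases upstream of a start site, read in the direction of the gene, and in 30 bases around the Arntl match, which begins 31 bases into the transcript. The windows are chr15:81811164-81811413 (plus strand) for Tef, chr11:69098699-69098948 (plus) for Per1, chr4:151044666-151044915 (minus) for Per3, chr11:98775378-98775627 (minus) for Nr1d1 and chr7:113207529-113207558 (plus) for Arntl.
Tef: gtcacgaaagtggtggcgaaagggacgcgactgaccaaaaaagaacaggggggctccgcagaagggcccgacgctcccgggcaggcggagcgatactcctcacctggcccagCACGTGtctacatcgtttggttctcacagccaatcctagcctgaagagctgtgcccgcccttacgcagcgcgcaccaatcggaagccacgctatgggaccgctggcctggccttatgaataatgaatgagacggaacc
Per1: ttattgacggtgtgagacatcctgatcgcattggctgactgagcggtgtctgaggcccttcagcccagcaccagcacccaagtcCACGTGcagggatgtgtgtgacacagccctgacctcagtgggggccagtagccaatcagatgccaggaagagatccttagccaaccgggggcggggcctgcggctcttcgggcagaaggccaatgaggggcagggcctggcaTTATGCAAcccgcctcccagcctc
Per3: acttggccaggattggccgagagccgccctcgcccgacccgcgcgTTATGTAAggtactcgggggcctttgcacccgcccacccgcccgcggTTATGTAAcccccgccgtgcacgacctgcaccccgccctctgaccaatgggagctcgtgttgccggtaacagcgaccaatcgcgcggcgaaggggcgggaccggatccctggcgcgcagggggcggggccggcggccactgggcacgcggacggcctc
Nr1d1: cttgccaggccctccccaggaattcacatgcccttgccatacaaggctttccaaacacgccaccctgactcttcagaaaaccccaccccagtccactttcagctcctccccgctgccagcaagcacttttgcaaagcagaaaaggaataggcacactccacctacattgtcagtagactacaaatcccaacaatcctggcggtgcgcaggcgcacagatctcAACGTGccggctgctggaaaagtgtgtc
Arntl: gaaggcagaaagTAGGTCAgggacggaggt
Each of the 2 Tef start sites has an E-box, beginning 138 bases before the site shown and 127 bases before the other, and that of Per1 begins 166 bases before it. The D-box of Per1 lies 24 bases before its start and those of Per3 205 and 158 bases before theirs. The variant of Nr1d1, written AACGTG on this strand, lies 28 bases before the start. These are letter matches in a short window and say nothing of binding in these cells.

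On the mm10 build, with GENCODE vM21 gene limits, Dbp (ENSMUSG00000059824) spans chr7:45705088-45710203 on the plus strand, Tef chr15:81802421-81826863 (plus), Per1 chr11:69095217-69109960 (plus), Per2 chr1:91415982-91459324 (minus) and Per3 chr4:151003652-151044665 (minus). Nr1d1 spans chr11:98767932-98775333 (minus), Nr1d2 chr14:18204054-18239127 (minus), Arntl chr7:113207465-113314126 (plus), Npas2 chr1:39193731-39363236 (plus) and Clock chr5:76209868-76304792 (minus). Exons of Dbp overlap 539 bases of Sphk2, and those of Nr1d1 263 bases of Thra, both on the opposite strand, and the sources used here do not say whether counting used strand. Without strand, reads from such partners cannot be told apart. From pulse to chase Sphk2 had a ratio of 1.15 in adipogenic CAR-like and 1.62 in osteoblast-like cells, and Thra 1.01 and 1.53, so Dbp and Nr1d1 in osteoblast-like cells carry that uncertainty. In endothelial-like cells the Sphk2 ratio was 1.47. Thra exceeded Nr1d1 in both libraries of the CAR-like, endothelial-like and macrophage-like classes. It stood at 174 and 175 CPM in adipogenic and 153 and 145 in osteogenic CAR-like cells. In endothelial-like cells it stood at 69.0 and 76.0, and in macrophage-like cells at 26.7 and 30.2. Nr1d1 carries the same uncertainty in all of these. Sphk2 exceeded Dbp in both libraries at 29.5 and 25.3 CPM in macrophage-like, 17.7 and 15.0 in monocyte-like and 15.3 and 15.7 in neutrophil-like cells. It also did so in B cell-like cells, at 16.8 and 13.3 CPM, and in primary-granule progenitor-like cells. In the latter its chase level was 15.9 CPM, against 6.52 for Dbp, and its ratio was 1.44 (0.97 to 2.21). Dbp in all of these blood classes carries the uncertainty as well. In T or NK-like cells Sphk2 stood at 11.8 and 10.2 CPM, below Dbp at 18.1 and 17.4.

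The pulse matrix held 10608 barcodes with 89009901 UMIs (unique molecular identifiers, 1 per captured transcript) and the chase matrix 10046 with 82939659. After filtering, 9212 and 8335 cells remained, with medians of 7772.5 and 7489 UMIs, and 20 of their barcodes occurred in both libraries. Cells were placed in classes by marker genes, none of them a clock gene, and 10 classes had at least 100 cells in each library, holding 88.0% of the pulse cells and 89.0% of the chase cells. They were adipogenic CAR-like (3475 pulse and 3567 chase cells), osteogenic CAR-like (693 and 487), osteoblast-like (483 and 457), endothelial-like (388 and 342), macrophage-like (1140 and 972), monocyte-like (288 and 389), neutrophil-like (598 and 397), primary-granule progenitor-like (121 and 340), B cell-like (495 and 152) and T or NK-like (428 and 319). The primary-granule progenitors were nearest to the limit of 100 cells, and erythroid-like cells, with 72 and 71, were the largest class left out. Among the 10 genes that most set each class apart, 2 to 7 were its own markers and at most 1 was a marker of another class. The same markers had gated these cells, so that count is no separate check of what the classes are. Blood classes were present although the sort was for tdTomato, whose transcript stood at 2102 and 2086 CPM in adipogenic CAR-like and from 96.9 to 1235 CPM over the blood classes of the pulse and from 105 to 1125 over those of the chase. The highest of these was the T or NK-like class in both libraries. The neutrophil marker S100a8 differed between the libraries inside other classes: within the adipogenic CAR-like class it stood at 1221 CPM in the pulse and 558 in the chase, where CPM is the UMIs of a gene per 1000000 UMIs of its class. It was also lower in the chase in osteogenic CAR-like (1836 and 427) and endothelial-like cells (329 and 116), nearly level in macrophage-like cells (240 and 235) and higher in osteoblast-like (1610 and 2289) and T or NK-like cells (161 and 306). Its part in the results below was not tested.

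In adipogenic CAR-like cells, the Adipoq-expressing stromal cells that support blood formation, the output genes, Per2, Per3 and Nr1d2 were higher in the chase library and the activators Arntl and Npas2 were lower. Dbp, an output transcription factor, showed the greatest contrast, at 26.6 CPM in the pulse and 116 in the chase. Per1 and Clock stood at nearly the same level in both libraries. By the rule of 1.5-fold, applied where the libraries together held 50 UMIs or more, 5 of the 10 members were higher and 2 were lower in the chase, where 7.82% of 12883 genes were higher and 6.6% lower. The median log2 ratio of chase to pulse was 0.71 over the members and -0.02 over all genes. These counts have no replicate check, because each group is 1 library, and every interval given here is a 95% interval that covers counting error only.

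The output genes Dbp and Tef encode transcription factors of the same bZIP family. Dbp in adipogenic CAR-like cells rested on 789 pulse and 2865 chase UMIs, and its chase-to-pulse ratio was 4.35 (4.02 to 4.71). Tef stood at 46.4 CPM in the pulse and 95.5 in the chase, a ratio of 2.06 (1.93 to 2.20). Both genes were thus higher in the chase by far more than counting error. In osteogenic CAR-like cells, the Alpl-expressing CAR subset, Dbp stood at 17.5 and 39.1 CPM (ratio 2.23, 1.75 to 2.85) and Tef at 32.1 and 58.1 (ratio 1.81). In osteoblast-like cells, the bone-forming class, Dbp stood at 2.97 and 15.0 CPM (ratio 5.06, 3.34 to 7.89) and Tef at 5.73 and 14.6 (ratio 2.54, 1.81 to 3.58). In endothelial-like cells, which line marrow vessels, Dbp stood at 6.66 and 29.6 CPM (ratio 4.45, 2.76 to 7.47) and Tef at 26.9 and 57.9 (ratio 2.15, 1.65 to 2.81). Both genes were past 1.5-fold in each of these 4 classes.

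The blood classes did not repeat that contrast as a whole. In macrophage-like cells Dbp stood at 15.4 and 18.7 CPM, a ratio of 1.21 whose interval (0.97 to 1.53) spanned 1, and Tef at 15.3 and 22.4, a ratio of 1.47. In T or NK-like cells Dbp stood at 18.1 and 17.4 CPM from 23 and 24 UMIs, and in B cell-like cells at 13.5 and 11.4 from 20 and 12 UMIs. Those lymphoid Dbp values differed by less than counting error. Monocyte-like cells held 7 and 22 Dbp UMIs, a ratio of 1.82 whose interval (0.75 to 5.03) included 1. Tef was higher in the chase in T or NK-like cells, from 9 and 30 UMIs (ratio 3.07, 1.42 to 7.36). Its ratio was 1.66 in monocyte-like, 1.21 in neutrophil-like, 1.18 in B cell-like and 0.76 in primary-granule progenitor-like cells, each interval including 1. Dbp was past 1.5-fold in neutrophil-like cells, at 3.29 and 10.2 CPM, and in primary-granule progenitor-like cells, the immature granulocytes, at 2.49 and 6.52 CPM. Both rested on few molecules, 19 and 41 UMIs in the former and 7 and 54 in the latter, and with a marker lead of 0.3 in place of 0.1 the neutrophil ratio was 1.23. The difference between classes was larger than counting error for some pairs: the Dbp ratio of adipogenic CAR-like cells was 3.58 times (2.83 to 4.54) that of macrophage-like cells, 4.52 times (2.54 to 8.05) that of T or NK-like cells and 1.95 times (1.52 to 2.50) that of osteogenic CAR-like cells. Against endothelial-like cells it was 0.98 times (0.61 to 1.57) and against osteoblast-like cells 0.86 times (0.57 to 1.30), both intervals including 1. Against neutrophil-like cells it was 1.40 times (0.81 to 2.43) and against primary-granule progenitor-like cells 1.66 times (0.75 to 3.67), intervals that also include 1.

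Free RNA from the abundant CAR-like cells can enter any droplet, so each level was set beside the level that this would bring. That level was taken from Adipoq, which stood at 1945 and 2054 CPM in adipogenic and 498 and 356 in osteogenic CAR-like cells. In neutrophil-like cells Adipoq reached 7.79% of its CAR level in the pulse and 6.83% in the chase, and the same share of CAR Dbp would give 2.07 and 7.91 CPM against the 3.29 and 10.2 measured. That background came to 63.0% and 77.4% of the measured neutrophil Dbp. Nr1d1 in neutrophils, at 4.85 and 5.73 CPM, lay below its background of 6.73 and 8.18, so the neutrophil shares can be too high. For neutrophil Clock it came to 58.9% and 94.7%. In endothelial-like cells the background was 1.91 and 8.69 CPM, or 28.6% and 29.3% of the measured Dbp, and in osteoblast-like cells 17.5% and 22.6%. In macrophage-like cells it was 3.00% and 11.6%. Because the background carries the CAR contrast itself, subtracting it changes a ratio of similar size little whatever its share, and the ratio left is therefore not read as a check.

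**Figure D1:**
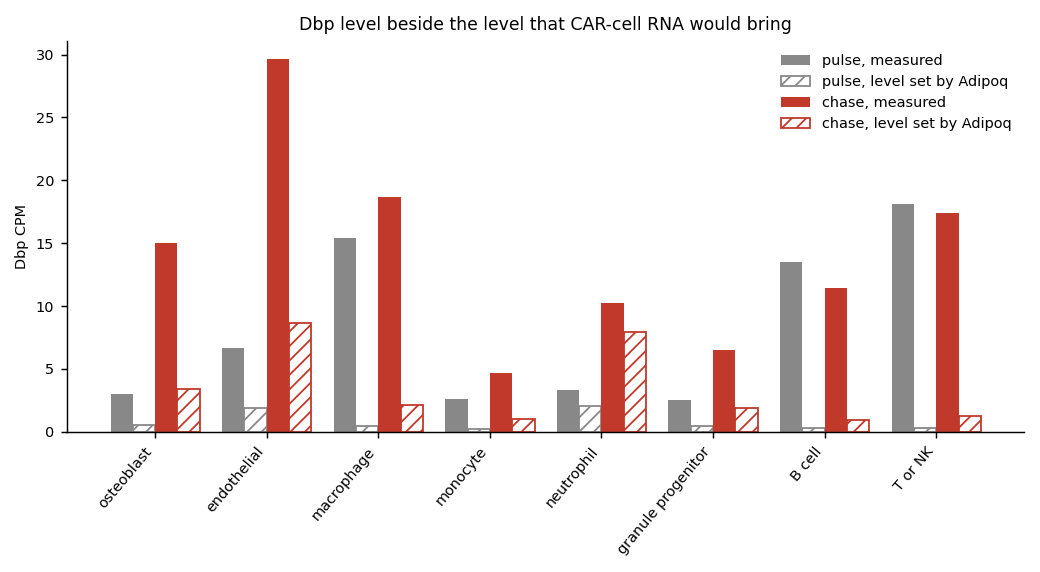
Dbp level (CPM, linear axis from 0) in 8 classes outside the CAR gates, for the pulse library (grey) and the chase library (red); filled bars are measured levels and hatched bars the level that CAR-cell RNA would bring by Adipoq, with no error bars drawn. In neutrophil-like cells the hatched bars reach 2.07 and 7.91 CPM of the 3.29 and 10.2 measured, and in macrophage-like cells they stay small.

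Per1, Per2 and Per3 encode the repressors of the loop, and the 3 genes did not move alike. Per2 in adipogenic CAR-like cells stood at 10.2 CPM in the pulse and 27.0 in the chase, a ratio of 2.65 (2.31 to 3.05). Per3 stood at 31.4 and 70.5 CPM (ratio 2.25, 2.07 to 2.43). Per1, which also answers quickly to stress hormones and handling, stood at 61.1 and 56.5 CPM (ratio 0.93, 0.86 to 0.99). Per2 and Per3 were past 1.5-fold and Per1 was not. Per2 was also higher in osteogenic CAR-like cells (5.05 and 10.4 CPM, ratio 2.06, 1.29 to 3.33) and in endothelial-like cells (4.24 and 15.0 CPM, ratio 3.54). Per3 was higher in osteoblast-like cells (2.27 and 10.3 CPM, ratio 4.54, 2.79 to 7.63), while in osteogenic CAR-like cells it stood at 33.9 and 40.8 CPM, a ratio of 1.20 whose interval (0.98 to 1.47) included 1. Between the CAR-like classes Per3 differed by less than counting error in the pulse (adipogenic over osteogenic level 0.93, 0.80 to 1.08) and by more in the chase, where the adipogenic level was 1.73 times higher (1.48 to 2.03).

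Per1 differed little between the libraries in the stromal, endothelial-like and macrophage-like classes. Its ratio was 1.13 in osteogenic CAR-like cells, 1.20 in osteoblast-like cells, 1.12 in endothelial-like cells and 1.21 (1.10 to 1.34) in macrophage-like cells, none past 1.5-fold. It was lower in the chase in 3 blood classes. In neutrophil-like cells it stood at 49.7 CPM in the pulse and 30.6 in the chase, 1.62-fold lower (1.31 to 2.02). In T or NK-like cells it stood at 109 and 69.7 CPM (1.56-fold lower, 1.19 to 2.05). In B cell-like cells it stood at 60.6 and 27.6 CPM (2.20-fold lower, 1.43 to 3.46). The clusters named T or NK-like in joint clustering without clock genes were shared unevenly, with 470 pulse and 131 chase cells in cluster 9 and 44 and 214 in cluster 16, and so were the B cell-like ones, with 420 and 62 in cluster 12 and 107 and 95 in cluster 18. The part of that shift in these values was not tested. The make-up of the B cell-like class differed between the libraries, as described below for Arntl, and mature-type B cells held 74.8 CPM (59.0 to 93.4) of Per1 in the pulse and 63.6 (32.9 to 111) in the chase, intervals that overlap.

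Per levels in some blood classes were high in both libraries. Per2 in neutrophil-like cells stood at 11.96 CPM in the pulse and 12.7 in the chase, a ratio of 1.06 (0.72 to 1.55), and in the pulse this exceeded the 10.2 CPM of adipogenic CAR-like cells, though not beyond counting error. Per3 in primary-granule progenitor-like cells stood at 26.7 and 23.3 CPM, from 75 and 193 UMIs, against 5.21 CPM or less in macrophage-like and monocyte-like cells. Its ratio there was 0.87 (0.66 to 1.15). Dbp in the same class stood at 2.49 and 6.52 CPM.

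Nr1d1 and Nr1d2 encode haem-sensing nuclear receptors that repress Arntl. Nr1d1 in adipogenic CAR-like cells stood at 86.4 CPM in the pulse and 120 in the chase, a ratio of 1.39 (1.31 to 1.46), larger than counting error but under 1.5-fold. Nr1d2 stood at 52.8 and 101 CPM (ratio 1.92, 1.80 to 2.05). The same order held in osteoblast-like cells, where Nr1d1 stood at 20.9 and 32.0 CPM (ratio 1.53) and Nr1d2 at 10.4 and 25.9 (ratio 2.50). For endothelial-like cells Nr1d1 stood at 23.9 and 42.5 CPM (ratio 1.78, 1.33 to 2.39) and Nr1d2 at 49.0 and 72.5 (ratio 1.48, 1.20 to 1.83), ratios whose intervals overlap. In macrophage-like cells Nr1d1 stood at 15.8 and 14.5 CPM (ratio 0.92, 0.72 to 1.17), while Nr1d2 stood at 15.4 and 28.2 CPM (ratio 1.83, 1.48 to 2.27). Those intervals do not overlap. Thra, whose exons overlap those of Nr1d1, had a ratio of 1.13 in macrophage-like and 1.01 in adipogenic CAR-like cells. Whether its reads entered the Nr1d1 counts was not tested. Nr1d2 was also higher in T or NK-like cells, whose pulse and chase cells lay largely in the different clusters 9 and 16, at 22.8 and 37.0 CPM, where the interval of its ratio began just above 1 (1.62, 1.01 to 2.65).

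Arntl, Npas2 and Clock encode the activators. Arntl in adipogenic CAR-like cells stood at 9.72 CPM in the pulse, from 288 UMIs, and at 3.52 in the chase, from 87, and was 2.76-fold lower (2.17 to 3.55). Npas2, a partner of Arntl that can stand in for Clock, measured 8.20 and 4.24 CPM, 1.93-fold lower in the chase (1.53 to 2.45). Clock stood at 68.2 and 62.2 CPM (ratio 0.91, 0.85 to 0.98). Both low-level activators were lower in the chase and Clock stayed within 1.5-fold. Arntl was also lower in osteoblast-like cells, at 13.3 and 6.07 CPM (2.20-fold, 1.54 to 3.22), and in endothelial-like cells, at 24.5 and 13.2 CPM (1.85-fold, 1.24 to 2.80). In osteogenic CAR-like cells it stood at 15.8 and 13.3 CPM, a ratio of 0.84 whose interval (0.60 to 1.18) included 1. The Arntl ratio of adipogenic CAR-like cells was 0.43 times (0.29 to 0.64) that of osteogenic ones.

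Npas2 had at least 50 UMIs in the 3 stromal classes and in no other. It had 0 UMIs in endothelial-like, monocyte-like and B cell-like cells of both libraries, which by the upper 95% Poisson bound allowed up to 1.29 CPM in the endothelial-like and 3.51 CPM in the B cell-like cells of the chase, and no more than 8 UMIs in any other blood class of either library. In T or NK-like cells of the chase it stood at 1.45 CPM (0.18 to 5.24), not separated from the 4.24 of adipogenic CAR-like cells. In osteogenic CAR-like cells it stood at 9.51 and 6.17 CPM and in osteoblast-like cells at 6.72 and 4.09. The osteogenic difference, 1.54-fold lower (0.96 to 2.54), was within counting error, and with a stricter cell filter the chase-to-pulse ratio was 1.02. Clock was past 1.5-fold only in 2 blood classes: 1.98-fold higher (1.09 to 3.89) in primary-granule progenitor-like cells and 2.01-fold lower (1.16 to 3.65) in neutrophil-like cells, at 13 and 76 and at 52 and 18 UMIs. The CAR background given above came to 58.9% and 94.7% of the neutrophil Clock level. In the other 7 classes with enough UMIs the Clock ratio lay within 1.5-fold.

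Over the 4 stromal and endothelial classes, 38 of 40 pairs of a member and a class had at least 50 UMIs, and 18 of these were higher in the chase, 6 were lower and 14 lay between. Over the 6 blood classes, 30 of 60 pairs had enough UMIs, and 7 were higher, 5 lower and 18 between. By class, members were higher and lower in the chase as follows, each beside the share of all genes. In osteogenic CAR-like cells 4 of 10 were higher, where 6.05% of genes were, and 1 was lower, where 8.14% were. In osteoblast-like cells 5 of 9 were higher (9.37% of genes) and 2 lower (3.85%). In endothelial-like cells 4 of 9 were higher (4.89%) and 1 lower (3.19%). In macrophage-like cells 2 of 9 were higher (4.06%) and none lower (5.65%). In neutrophil-like cells 1 of 7 was higher (5.14%) and 2 lower (11.2%), and in primary-granule progenitor-like cells 2 of 6 were higher (5.09%) and 1 lower (3.53%). In B cell-like cells 1 of 2 was higher (13.9%) and 1 lower (20.5%), in T or NK-like cells 1 of 4 was higher (10.8%) and 1 lower (7.92%), and in monocyte-like cells neither of the 2 measured was past 1.5-fold (4.83% and 3.01%). The osteoblast-like gate held cells rich in the neutrophil gene S100a8, with 7.45% of the pulse cells and 31.1% of the chase cells at 1000 CPM or more. Without those cells the osteoblast ratios were 4.71 for Dbp, 2.31 for Tef, 4.39 for Per3, 2.45 for Nr1d2 and 0.44 for Arntl, on the same side of 1.5-fold as with them. In joint clustering without clock genes, the clusters named osteoblast-like were cluster 7 (407 pulse and 314 chase cells), cluster 17 (0 and 220) and cluster 23 (68 and 11). The tdTomato transcript in the osteoblast-like class stood at 391 CPM in the pulse and 1451 in the chase, and the part of either difference in these ratios was not tested.

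**Figure D2:**
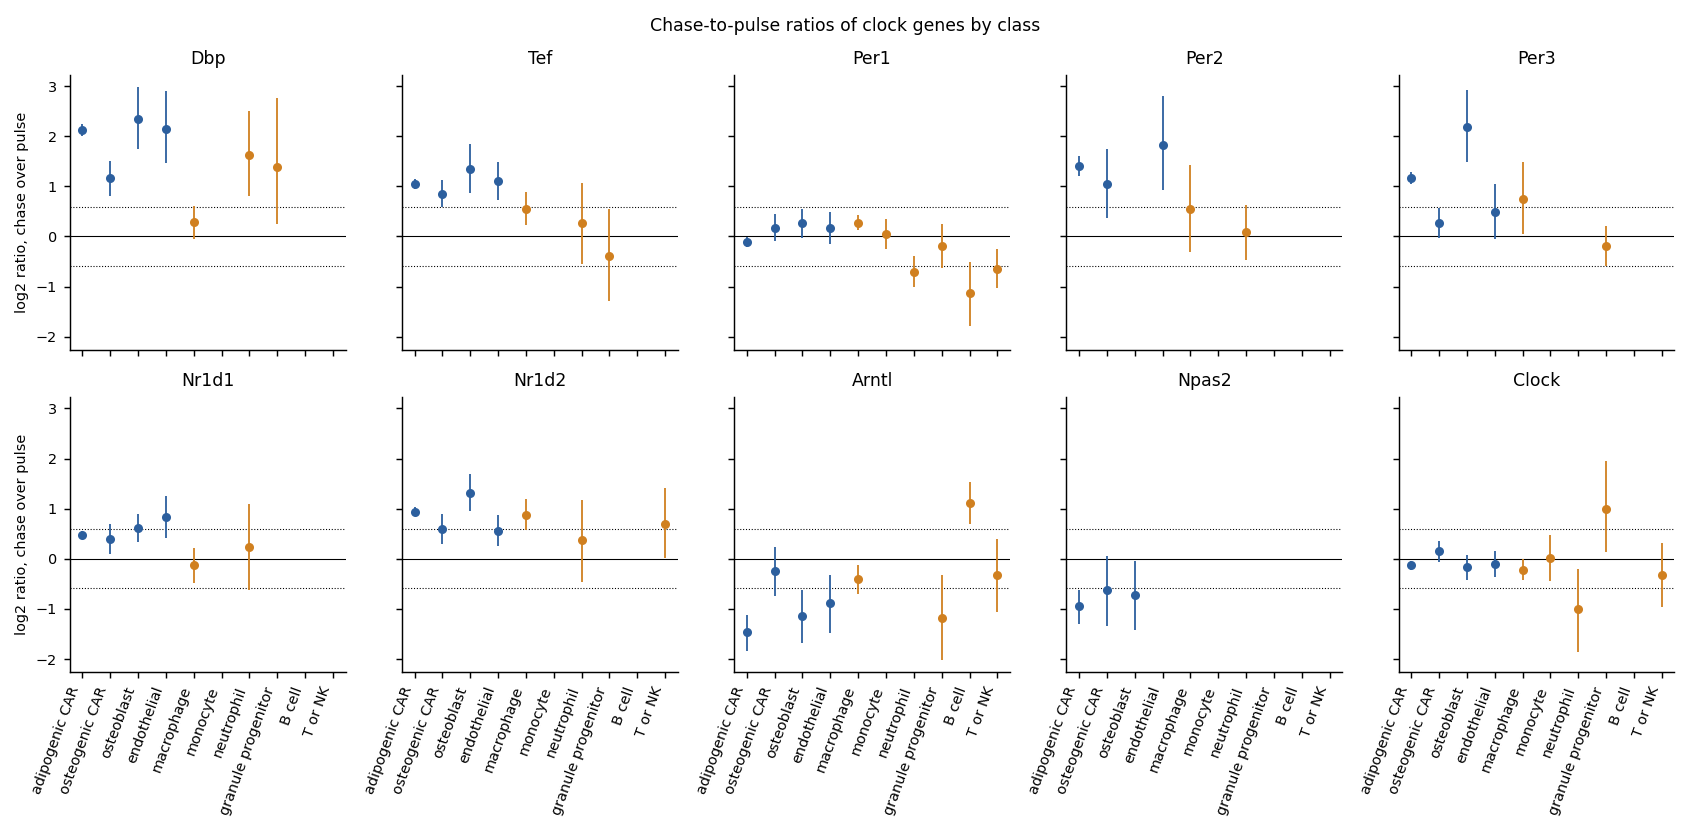
Log2 ratio of chase to pulse for each member in each class, with the 95% counting interval; stromal and endothelial classes are blue, blood classes are orange, dotted lines mark 1.5-fold and pairs under 50 UMIs are not drawn. Dbp and Tef lie above the upper line in all 4 blue classes, Arntl lies below the lower line in 3 of them and above the upper line in B cell-like cells, and Per1 lies inside the lines in all 4.

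A ratio of 2 members inside a class does not depend on how the libraries are scaled. In adipogenic CAR-like cells there were 2.74 Dbp UMIs per Arntl UMI in the pulse and 32.9 in the chase, a change of 12.02-fold (9.34 to 15.5). The change was 11.1-fold (6.49 to 19.1) in osteoblast-like cells, from 0.22 to 2.48, and 8.24-fold (4.49 to 15.1) in endothelial-like cells, from 0.27 to 2.24. It was 2.65-fold (1.77 to 3.95) in osteogenic CAR-like cells, from 1.11 to 2.95, and 1.61-fold (1.20 to 2.17) in macrophage-like cells, from 0.60 to 0.97. Other blood classes had larger changes on few molecules: 6.47-fold (1.84 to 22.7) in neutrophil-like cells, with 4 Arntl UMIs in the chase, 5.91-fold (2.27 to 15.4) in primary-granule progenitor-like cells and 3.14-fold in monocyte-like cells, whose interval included 1. In T or NK-like cells the ratio was 0.62 and 0.75, a change of 1.21 (0.57 to 2.53). Over the B cell-like class it went from 0.25 to 0.097, the only class of the 10 in which it was lower in the chase, while the share of precursor-type cells went from 11.3% to 44.1%. Within the mature-type cells there were 15 Dbp and 17 Arntl UMIs in the pulse and 4 and 1 in the chase. Within the precursor-type cells there were 2 and 57, and 7 and 104, so in neither of these stages was the ratio lower in the chase. It was lower in the cells with neither Ms4a1 nor a precursor gene, with 3 and 5 UMIs in the pulse and 1 and 17 in the chase. All of these rest on few Dbp molecules.

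**Figure D3:**
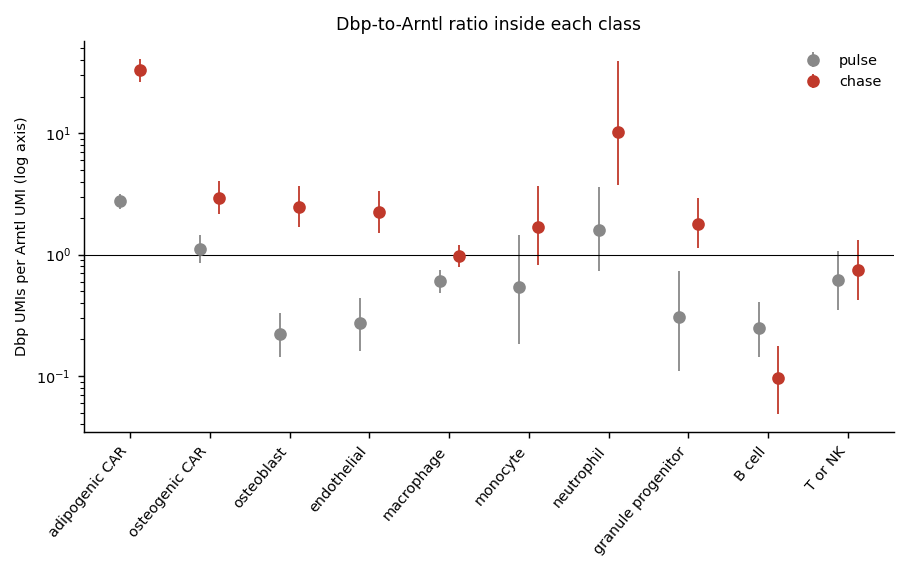
Dbp UMIs per Arntl UMI inside each class (log axis) for the pulse library (grey) and the chase library (red), with 95% counting intervals; the line marks equal counts. The ratio is 2.74 and 32.9 in adipogenic CAR-like cells and 0.25 and 0.097 in B cell-like cells.

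Levels also differed between classes within a library. In the chase, 6 members (Dbp, Tef, Per2, Per3, Nr1d1 and Nr1d2) were highest in adipogenic CAR-like cells, and in the pulse 4 (Dbp, Tef, Nr1d1 and Nr1d2) were. Each of the 6 stood above the next class in the chase beyond counting error, whereas in the pulse Dbp in adipogenic CAR-like cells (26.6 CPM) was not separated from T or NK-like cells (18.1) and Nr1d2 (52.8 CPM) was not separated from endothelial-like cells (49.0). The chase order for Dbp began with adipogenic CAR-like (116 CPM), osteogenic CAR-like (39.1) and endothelial-like cells (29.6), each separated from the next, followed by macrophage-like (18.7), T or NK-like (17.4), osteoblast-like (15.0) and B cell-like cells (11.4), whose neighbours were not separated. In the pulse, Nr1d1 in the adipogenic CAR-like class was 2.86 times (2.48 to 3.32) its level in osteogenic CAR-like and 5.45 times (4.59 to 6.52) that in macrophage-like cells. Per1 had another order, with T or NK-like cells highest in the pulse (109 CPM) and macrophage-like cells in the chase (95.7). Arntl was highest in B cell-like cells in both libraries, at 54.6 and 118 CPM, and Clock was highest in endothelial-like cells in the pulse (82.6) and in osteogenic CAR-like cells in the chase (77.8), where these classes were not separated.

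**Figure D4:**
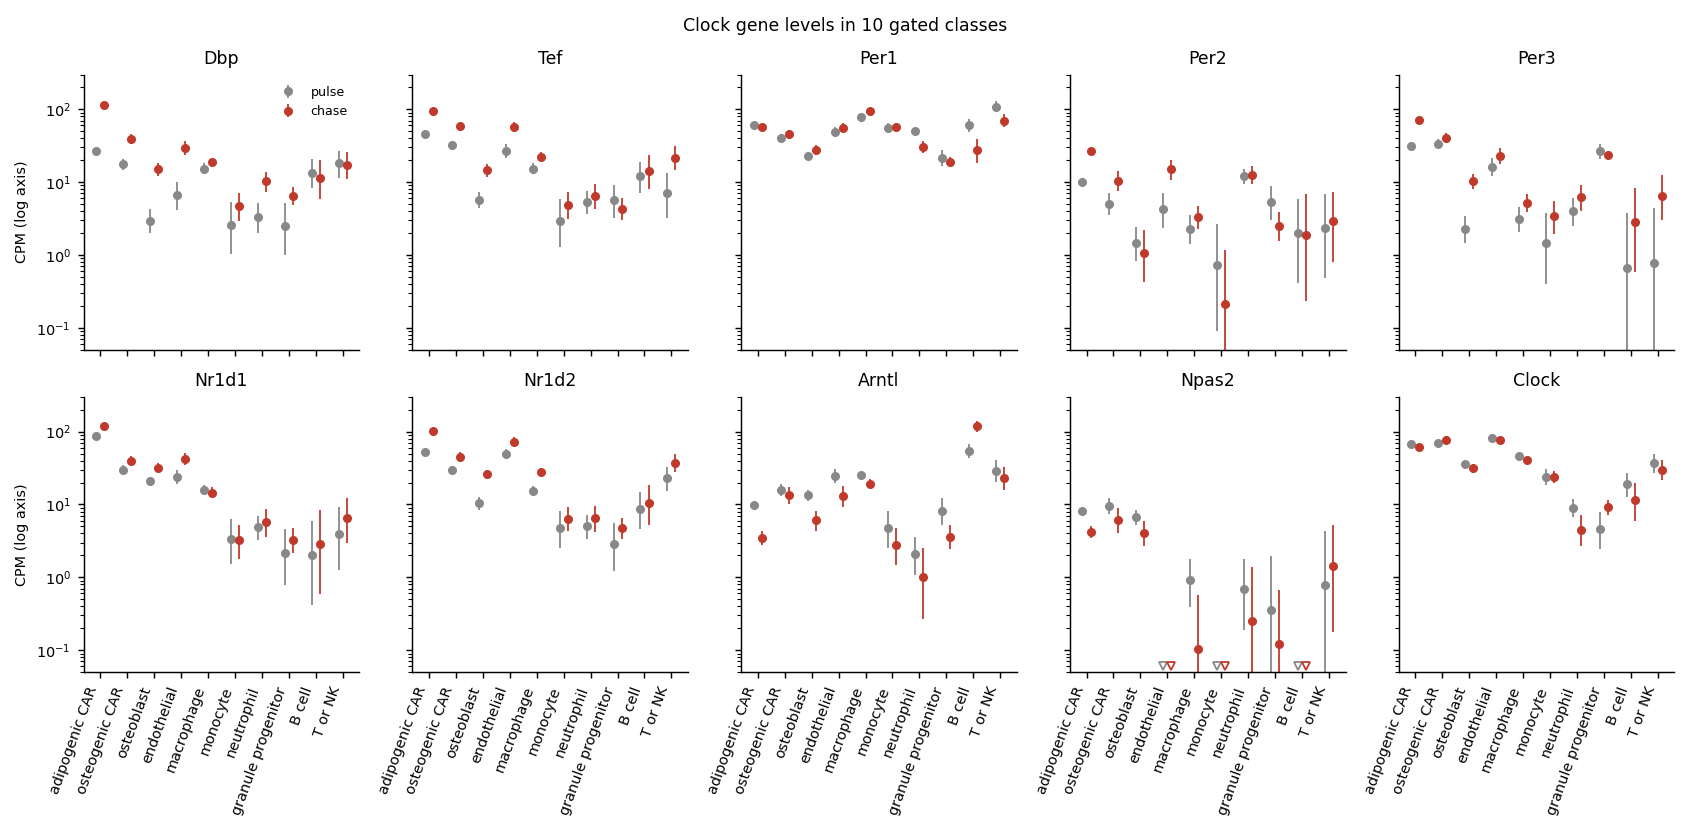
Level (CPM, log axis) of each member in 10 classes for the pulse library (grey) and the chase library (red), with 95% Poisson intervals; open triangles at the foot mark 0 UMIs, and bars that reach the foot run off the axis. Adipogenic CAR-like cells hold the highest Dbp, at 26.6 and 116 CPM, and B cell-like cells the highest Arntl, at 54.6 and 118 CPM.

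Arntl in B cell-like cells differed by the stage of the cells, a split made after the values were seen. Cells with Ms4a1, the CD20 gene of mature-type B cells, and none of the precursor genes Vpreb1, Igll1, Dntt and Rag1 made up 74.3% of the class in the pulse and 36.2% in the chase. Cells with a precursor gene and no Ms4a1 made up 11.3% and 44.1%. A single UMI of such a gene was enough, so the stage of a cell depends on its depth, which was greater in the chase. Median depths in the pulse and chase were 2137 and 2966 UMIs in mature-type cells and 2954 and 7349 in precursor-type cells. In cells with neither kind of gene they were 2007 and 3139. The part of depth in these shares was not tested. Arntl stood at 214 CPM (162 to 277) in the precursor-type cells of the pulse and 142 (116 to 172) in those of the chase, from 56 and 67 cells. In the mature-type cells it stood at 16.5 CPM (9.62 to 26.4) and 5.30 (0.13 to 29.5), the latter from 1 UMI. Cells with neither kind of gene, 10.3% and 19.1% of the class, held 42.4 CPM (13.8 to 99.0) and 165 CPM (96.3 to 265), and those with both numbered 20 and 1. Arntl was thus higher in precursor-type than in mature-type cells of both libraries. It was not higher in the chase within either of these stages, but its level was higher there in the cells with neither gene, whose intervals overlap slightly, and over the whole class the ratio was 2.16 (1.62 to 2.90).

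Levels of Dbp, Nr1d1 and Arntl among CAR-like cells differed along the osteogenic-to-adipogenic axis, read from the difference of the 2 marker scores in 5 bins chosen after the data were seen. From the most osteogenic to the most adipogenic bin, Dbp in the chase stood at 28.9, 70.6, 101, 115 and 129 CPM. In the pulse it stood at 11.6, 25.0, 18.2, 27.2 and 34.8 CPM. The chase-to-pulse ratio in these bins was 2.48, 2.82, 5.53, 4.21 and 3.70. Dbp was therefore higher at the adipogenic end in both libraries, while the intervals of its ratio overlap between the second bin (2.15 to 3.72) and the last (2.94 to 4.70), so no order of the ratios along the axis is read. Nr1d1 went from 22.9 to 102 CPM across the bins in the pulse and from 35.9 to 134 in the chase. Arntl ran the other way, from 17.8 to 8.70 CPM in the pulse and from 14.7 to 3.09 in the chase.

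**Figure D5:**
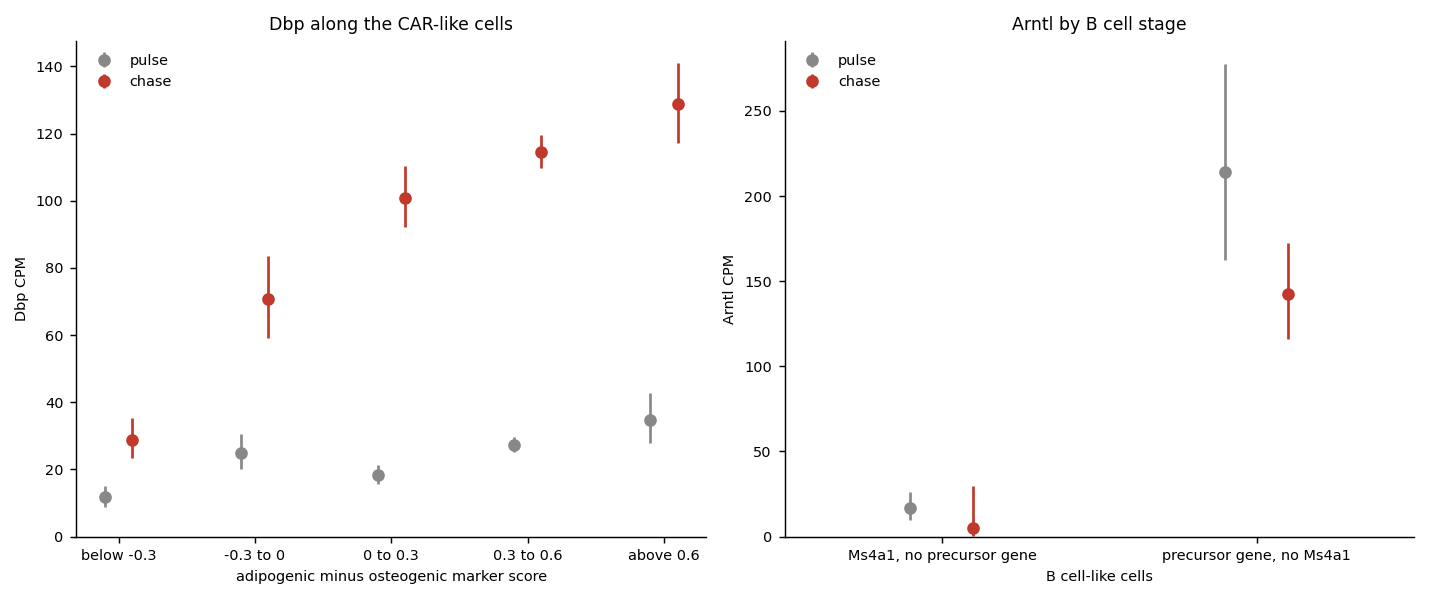
Left, Dbp level (CPM) in CAR-like cells by the adipogenic minus osteogenic marker score; right, Arntl level (CPM) in B cell-like cells by stage; pulse is grey, chase is red, both axes start at 0 and bars are 95% Poisson intervals. Dbp reaches 129 CPM at the adipogenic end of the chase, and Arntl in precursor-type B cells stands at 214 CPM in the pulse and 142 in the chase.

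When all cells were clustered jointly without any clock gene, the clusters named adipogenic CAR-like from their markers were shared unevenly by the libraries: there were, over whole clusters, 2733 pulse but 106 chase cells in cluster 0, 144 but 2589 in cluster 1, and 433 beside 378 in cluster 6. Smaller numbers lay in cluster 10 (102 and 410) and cluster 21 (27 and 108), each with 2 Dbp UMIs in the pulse. Inside clusters 0, 1 and 6 Dbp was higher in the chase. In cluster 6, the most evenly shared, it stood at 23.3 and 90.7 CPM (ratio 3.90, 3.03 to 5.06), Arntl at 9.65 and 4.16 (ratio 0.43, 0.20 to 0.85) and Per1 at 51.4 and 45.0. In cluster 0 Dbp stood at 26.2 and 88.3 CPM. Other members past 1.5-fold over the class did not all pass it inside these clusters. In cluster 6 Tef (ratio 1.46) and Per2 (1.45, 0.94 to 2.24) did not, while Per3 (2.62) and Nr1d2 (1.60) did. In cluster 1 Tef (1.34), Per3 (1.46) and Nr1d2 (1.35) did not, while Per2 (1.82) did. Npas2, lower over the class, had a ratio of 1.48 (0.67 to 2.86) in cluster 0 and 0.47 in clusters 1 and 6. In cluster 1 the pulse cells already held 64.4 CPM of Dbp and 127 of Nr1d1, against 125 and 126 in the chase cells, so the Dbp ratio there was 1.93 (1.49 to 2.55) and that of Nr1d1 0.99 (0.83 to 1.21). None of those 144 pulse cells had a barcode found among the kept cells of the chase library. Leaving out the 15 adipogenic CAR-like cells whose barcode occurred in both libraries gave a Dbp ratio of 4.35 over the class.

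The difference was also seen per cell. After each cell was thinned to 2000 UMIs, 4.71% (4.01 to 5.48, exact binomial) of 3358 adipogenic CAR-like pulse cells and 19.5% (18.1 to 20.8) of 3351 chase cells held Dbp. Without thinning the shares were 16.6% and 44.3%, at median depths of 8137 and 6661 UMIs. Cells left out as too shallow numbered 117 and 216. The thinned shares for Nr1d1 were 15.1% and 21.1%, and for Arntl 1.85% and 0.69%. No class is known to lack Dbp. The lowest thinned shares in the pulse were 0.21% in osteoblast-like cells and 0.35% in neutrophil-like cells, with median depths of 21480 and 7923 UMIs, beside 0 of 121 primary-granule progenitor-like cells. Members were found together in single adipogenic CAR-like cells about as often as their separate shares would give. For the pairs with at least 20 such cells given by those shares, the observed count over that number ranged from 0.85 to 1.39 in 16 pairs of the pulse and from 0.74 to 1.40 in 27 pairs of the chase, with intervals excluding 1 in 1 and 3 pairs. The highest was Per1 with Nr1d1 in the chase, at 1.40 (1.15 to 1.70).

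Of 20 other clock genes, 18 had enough UMIs in adipogenic CAR-like cells, where 6 were higher in the chase and 1 was lower, beside 7.82% and 6.6% of all genes. Cry2, a partner of the Per repressors, stood at 36.1 CPM in the pulse and 55.1 in the chase (ratio 1.53, 1.41 to 1.66), and its ratio was 1.78 in osteoblast-like, 2.14 in endothelial-like and 2.02 in macrophage-like cells. Nfil3, a repressor that competes with Dbp at D-boxes, was lower, at 72.9 and 38.1 CPM (ratio 0.52, 0.48 to 0.56). It was also past 1.5-fold lower in osteoblast-like cells (ratio 0.66) and T or NK-like cells (0.55), and higher in macrophage-like cells (1.71). Bhlhe40, a repressor that competes at E-boxes, stood at 24.2 and 46.9 CPM (ratio 1.94), with ratios of 1.79 in osteogenic CAR-like and 2.78 in T or NK-like cells, and was lower in osteoblast-like (0.65), macrophage-like (0.39), monocyte-like (0.65) and B cell-like cells (0.27). Hlf, the other family member of Dbp and Tef, is named outside the rule and after its values were seen: it stood at 11.2 and 25.2 CPM in adipogenic CAR-like cells, a ratio of 2.25. In osteogenic CAR-like cells 2 of 13 measured genes of this list were higher and 1 was lower (6.05% and 8.14% of all genes), in osteoblast-like cells 3 and 3 of 13 (9.37% and 3.85%), and in endothelial-like cells 2 and 0 of 12 (4.89% and 3.19%).

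Several clock genes also answer to glucocorticoids or to cell handling, so lists of both kinds were measured beside them. Of 13 glucocorticoid-responsive genes in adipogenic CAR-like cells, 6 were higher in the chase and 2 lower, beside 7.82% and 6.6% of all genes. The metallothionein Mt1 stood at 811 and 1848 CPM, the kinase inhibitor gene Errfi1 at 1407 and 656, and the transcription factor gene Klf9 at 529 and 650. These 3 are the members of the list with the most UMIs. The largest ratio in the list, named here after its values were seen, was that of Zbtb16, a zinc finger transcription factor gene, at 11.3 and 75.9 CPM (ratio 6.71, 5.97 to 7.56), above the 4.35 of Dbp. Zbtb16 was also higher in osteogenic CAR-like cells (ratio 7.98, 4.70 to 14.3) and osteoblast-like cells (6.14, 3.62 to 10.9), and in endothelial-like cells it had 5 and 37 UMIs. Mt2 (ratio 3.91), Ddit4 (2.28), Fkbp5 (1.75) and Tsc22d3 (1.55), also named after their values were seen, are the others that were higher beside Mt1. Of 19 immediate early genes, 5 were higher and 1 lower, beside the same shares of all genes, with Fos at 6518 and 8433 CPM, Jun at 3699 and 4815, and Egr1 at 2699 and 4091. These lists moved with the library too, with median log2 ratios of 0.58 and 0.38 against 0.71 for the clock members. In osteogenic CAR-like cells their medians, 0.70 and 0.56, were above the 0.33 of the clock members, with 7 of 12 and 9 of 19 genes higher and 1 lower in each list, beside 6.05% and 8.14% of all genes. In osteoblast-like cells the medians were 0.54 and 0.14 against 0.62, in endothelial-like cells 0.19 and 0.27 against 0.56, and in macrophage-like cells 0.12 and 0.45 against 0.28. The part of either list in the clock results was not tested.

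Across the 20 values of class and library, on the log2(CPM + 5) scale, the members most like Dbp were Tef (Pearson r 0.88), Nr1d2 (0.83) and Nr1d1 (0.73), followed by Per2 (0.61), Clock (0.59), Per3 (0.56), Npas2 (0.40), Per1 (0.38) and Arntl (0.11). The values share 2 libraries, so these are descriptions without a p. Among 11855 other genes the most like were Bbs4 (0.86), Cbfa2t2 (0.86), Tmem67 (0.85), H2-K1 (0.84) and Cxcl1 (0.84). The least like were Trim16 (-0.74), Sap30 (-0.74), Timm10b (-0.73), Cmpk1 (-0.72) and Pkm (-0.72). Cxcl1, a neutrophil-attracting chemokine gene, had a chase-to-pulse ratio of 5.60 in adipogenic CAR-like cells, and Pkm, a glycolytic enzyme gene, 0.92.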

How the data were processed

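Raw 10x Genomics count matrices of 2 libraries, 1 pulse and 1 chase, were analysed. The deposited values are UMI counts per gene and barcode that the authors had not normalised. The file headers name Cell Ranger 6.0.2 and the submitters' processing notes name 2.1.1, and the notes give the build mm10. The sources used here do not say whether counting used strand. Barcodes with fewer than 500 genes, fewer than 1000 UMIs or a mitochondrial share of 10% or more were dropped, and Scrublet (scanpy 1.11.5, exact neighbours) removed 178 pulse and 110 chase cells, 1.90% and 1.30%, so doublets may remain.

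Each cell was scored for 22 marker lists as the mean over markers of log-transformed UMIs per 10000, divided by the 90th percentile of positive cells and held to at most 1. A class needed a score of at least 0.25 and a lead of at least 0.1 over the next, a rule set after the data were seen, and cells with a lead under 0.2 numbered 341 pulse and 241 chase in the adipogenic CAR-like class, 205 and 126 in the osteogenic CAR-like class and 104 and 44 in the T or NK-like class. UMIs were summed per class and library and scaled to CPM. A count of 0.5 was added to each library before taking log2 for the medians. Poisson intervals, conditional intervals of ratios, Clopper-Pearson intervals of shares, and log-scale intervals for a change of a ratio cover counting error only; cells are not replicates and no test was possible. The ratio and its interval were run on simulated Poisson counts. Those counts hold no variation between libraries, mice or cells, so the run checks only the calculation. Promoters came from RefSeq on GRCm38.p6.

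The members and gene lists were chosen with earlier results of these data known. All members are named, with other clock genes past 1.5-fold in the same direction in adipogenic CAR-like cells and 2 or more other classes, the 5 genes most and least like Dbp among those with at least 200 UMIs, and the 3 genes with the most UMIs of the glucocorticoid-responsive and immediate early lists. Alternatives covered clustering (scikit-learn 1.9.0, leidenalg 0.10.2, igraph 0.11.9; 2000 variable genes, 30 components), scaling, cell weights, filters, doublets, fold, minimum UMIs, carry-over, thinning and, chosen after seeing the data, a lead of 0.3 and osteoblast-like cells without those rich in S100a8.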

Additional observations from a re-analysis of the deposited data

Results flagged for a closer look

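Pairs of classes in which a member was past 1.5-fold in opposite directions were picked out, and the difference between the classes was not tested. The chase-to-pulse ratio of Arntl was 2.16 in B cell-like cells, against 0.36 in adipogenic CAR-like, 0.45 in osteoblast-like, 0.54 in endothelial-like and 0.44 in primary-granule progenitor-like cells. That of Clock was 1.98 in primary-granule progenitor-like cells and 0.50 in neutrophil-like cells. In the neutrophil-like cells the level that CAR-cell RNA would bring came to 58.9% of the measured Clock in the pulse and 94.7% in the chase. Each ratio rests on 1 library per group, and the Clock values rest on 13 and 76 UMIs in the former class and 52 and 18 in the latter.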

How the results depend on the processing

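Of 462 recomputed chase-to-pulse ratios of the 68 pairs of a member and a class with enough UMIs, 456 moved by less than their counting interval. These include the ratios left after subtraction of carry-over, which, as said above, are not read as a check. With the stricter cell filter (at least 1000 genes, 2000 UMIs and under 5% mitochondrial UMIs), the Npas2 ratio in osteogenic CAR-like cells turned from 0.65 to 1.02. With a lead of 0.3 the ratio of Nr1d1 in osteogenic CAR-like cells was 1.84, and in neutrophil-like cells that of Dbp was 1.23 and that of Tef 0.68. With each cell weighing the same, Per1 in osteoblast-like cells was 0.92. After subtraction of carry-over, Clock in neutrophil-like cells was 0.063. The cause of these shifts was not tested. For Tef, Nr1d1 and Nr1d2 in neutrophil-like cells the background came to 101%, 143% and 107% of the measured chase level. No ratio was left for them after subtraction, so those are not among the 462. With a fold of 2 in place of 1.5, the 6 lower pairs over stromal and endothelial classes became 2 and the 7 higher and 5 lower pairs over blood classes became 3 and 3, as a stricter fold must give fewer. With a lead of 0.3 the blood pairs were 4 higher and 3 lower, with cells weighing the same 3 were lower, and with no minimum beyond 1 UMI in each library 18 were higher and 13 lower. The 18 higher stromal and endothelial pairs ranged from 13 to 19 over all alternatives. In the adipogenic CAR-like class as a whole every member kept its direction and its side of 1.5-fold under every alternative run. The change of the Dbp-to-Arntl ratio was 9.79 to 11.9 against 12.02. Single clusters and score bins were not among these alternatives. Inside cluster 1 Tef (ratio 1.34) and Nr1d2 (1.35) were under 1.5-fold, and in the most adipogenic bin Npas2 had a ratio of 1.16 (0.52 to 2.73). No paired analysis was possible because each group is 1 library, and for the same reason none could be left out. In the blood classes 30 of 60 pairs had fewer than 50 UMIs and could not be called at this depth.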

Other observations

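Some pairs with fewer than 50 UMIs over both libraries, not counted above, had intervals that excluded 1. In T or NK-like cells Tef stood at 7.08 CPM in the pulse and 21.8 in the chase, from 9 and 30 UMIs, a ratio of 3.07 (1.42 to 7.36), and Per3 had 1 and 9 UMIs, a ratio of 8.30 (1.15 to 364). In primary-granule progenitor-like cells Per2 stood at 5.34 and 2.53 CPM, from 15 and 21 UMIs, 2.11-fold lower (1.01 to 4.29).

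The promoter window of Ciart, a clock repressor gene outside the 10 members, held 3 E-boxes, at 116, 58 and 44 bases before its start site. Ciart stood at 1.25 CPM in the pulse and 2.55 in the chase of adipogenic CAR-like cells, a ratio of 2.04 (1.34 to 3.15).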
